A study of Rattus norvegicus with 3 samples.

Results

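The cells described here were phagocytes of injured rat spinal cord, chosen by a score of 4 measured genes, RT1-Db1, RT1-Ba, Clec10a and Lyve1. A phagocyte was a cell with at least 10 UMIs (unique molecular identifiers, counts of captured transcripts) of Csf1r, Cd68 and Tyrobp together per 10000, fewer than 100 of S100a8 and S100a9, and fewer than 2 UMIs of Top2a. Each phagocyte went to the highest of 4 scores, each the mean standardized level of 4 genes. The others were led by the microglial gene Tmem119, by the macrophage protease gene Mmp12 and by the sialic acid receptor gene Siglec1. The class II, Clec10a and Lyve1 score was highest in 547 of 2959 phagocytes (18.5%), among 5815 cells in all, and these 547 are called the selected cells. Their levels of the 4 genes are given as a description, because those values chose them.

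The study injected PBS or a hydrogel at the site of a cord injury in wild type rats aged 6 to 8 weeks. The hydrogel groups are labelled GHD and MPGHD in the treatment, G-HD and MPG-HD in the titles, and the labels give neither the composition of the gels nor the time after injury. Each condition used 5 animals and a 5-mm piece of cord around the injury, digested with collagenase and trypsin. There was 1 library per condition, and how animals were combined is not labelled, so no comparison between libraries has a replicate check.

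Selected cells numbered 121 of 719 phagocytes in the PBS library (16.8%, interval 14.2 to 19.8), 239 of 1191 in G-HD (20.1%, 17.8 to 22.5) and 187 of 1049 in MPG-HD (17.8%, 15.6 to 20.3). All intervals are exact 95% intervals unless named otherwise, and they cover counting error only, not differences between animals or preparations. The share was 1.19 times as high in G-HD as in PBS (log interval 0.978 to 1.45), 1.06 times in MPG-HD as in PBS (0.860 to 1.30) and 0.888 times in MPG-HD as in G-HD (0.748 to 1.06). All 3 intervals included 1. The libraries held 1513, 2619 and 2339 barcodes with 16081082, 26289759 and 23988263 UMIs in the order PBS, G-HD, MPG-HD, the order kept throughout. Pairs of libraries shared 5 to 8 cell barcodes, and 0 of these were selected cells in both. Median UMIs per selected cell were 6710, 6623 and 5397, below the 12468, 14646 and 13128 of other phagocytes.

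Class II molecules of the major histocompatibility complex display peptides from engulfed protein to CD4 T cells. In the rat, RT1-Da and RT1-Db1 encode the chains of one molecule and RT1-Ba and RT1-Bb those of another, while Cd74 encodes the invariant chain that escorts them. Dendritic cells hold high levels, and the macrophages of meninges and vessel walls, called border macrophages, hold them in part. Border macrophages are known for the mannose receptor Mrc1, the haemoglobin scavenger receptor Cd163 and, in a subset at vessels, the hyaluronan receptor Lyve1. Clec10a, a galactose-binding C-type lectin, is found on macrophages and on dendritic cells.

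Class II genes are known to share promoter elements, an X box and a Y box at a set distance, through which the coactivator CIITA acts. The stretches below show the exact core letters of both boxes in 3 of the 4 class II genes the results turn on. In RT1-Bb only the Y-box letters were found, and X boxes with other letters were not searched for. They come from the RefSeq promoter table of assembly GRCr8 and read 5′ to 3′ on the gene's strand. Capitals mark the X-box core GCAAC and the Y-box core ATTGG. RT1-Da lies at chr20:4515321-4515382 on the plus strand, RT1-Db1 at chr20:4560226-4560286 on the minus strand, RT1-Ba at chr20:4576969-4577030 on the plus strand and RT1-Bb at chr20:4604163-4604224 on the minus strand.
RT1-Da: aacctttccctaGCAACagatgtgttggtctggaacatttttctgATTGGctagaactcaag
RT1-Db1: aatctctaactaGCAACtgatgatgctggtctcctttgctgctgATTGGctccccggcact
RT1-Ba: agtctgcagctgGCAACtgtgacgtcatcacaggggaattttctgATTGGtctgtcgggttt
RT1-Bb: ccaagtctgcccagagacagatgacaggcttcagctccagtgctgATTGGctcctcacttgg

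GCAAC followed by ATTGG, starting 30 to 35 bases apart within 250 bases upstream, was on the gene's strand in 37 of 33469 RefSeq promoters (0.111%) and on either strand in 69 (0.206%). That spacing was set after the class II promoters had been read. Alone, GCAAC occurred in 29.5% of promoters and ATTGG in 34.0%, either strand. The pair was present in 7 of 10 class II genes with an entry (12 were listed), namely RT1-Da, RT1-Db1, RT1-Db2, RT1-Ba, RT1-DOa, RT1-DOb and RT1-Ha. It was not found for RT1-Bb, which holds ATTGG only in the stretch shown, RT1-DMa or Cd74, nor for any of the 5 border macrophage genes searched, Lyve1, Mrc1, Cd163, F13a1 and Folr2. A match is a description of these letters and not a measured binding site.

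The name "class II Lyve1 Clec10a macrophages" was borne out in part. Of the 547 selected cells, 160 (29.3%; 35, 60 and 65 by library) held no UMI of any of the 4 genes and fell to this score because its value for a cell with none, -0.34, was above those of the other scores, -0.50, -0.71 and -0.73. Those 160 cells were shallow, with a median of 1576 UMIs against 8103 for the 387 with at least 1. With those 387 alone the share in MPG-HD over G-HD was 0.774 (0.624 to 0.959) times. All 3 kinds of gene (class II, Clec10a and Lyve1) were found together in only 57 cells. Class II with Clec10a but no Lyve1 was found in 104 cells, Clec10a with Lyve1 but no class II in 68, and class II alone in 79. At the edge of the rule, 31 selected cells and 29 other phagocytes lay within 0.05 of the best competing score.

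Clustering of the selected cells alone gave 12 sub-clusters, named from marker lists where at least 3 markers of a type were found in at least 20% of cells and at least 2-fold higher than in the other selected cells. Sub-cluster 1, with 148 cells (34, 60 and 54 by library), was border macrophage-like with 8 of 14 markers, Mrc1, Cd163, Lyve1, Folr2, F13a1, Pf4, Ms4a7 and Fcgrt. Sub-cluster 3, with 59 cells, was microglia-like with 7 of 12 markers. Sub-cluster 5, with 33 cells, was monocyte-like, led by Fcnb, which encodes a ficolin of blood monocytes, at 3717 CPM (100 CPM is 1 UMI of the gene in 10000 UMIs summed over the cells) and Plac8, a monocyte gene, at 8031 CPM.

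Conventional and plasmacytoid dendritic-like cells formed separate sub-clusters, and the unnamed sub-cluster 6 is described beside them. Sub-cluster 10, with 20 cells (5, 7 and 8), had all 10 markers of conventional dendritic cells of type 1. The chemokine receptor gene Xcr1 and the dead-cell receptor gene Clec9a were each found in 90% of its cells, and the macrophage receptor gene Csf1r in 5%. Sub-cluster 6, with 32 cells (9, 12 and 11), stayed unnamed and held Csf1r in 50% of cells. It was led by Ccl17, a chemokine gene of mature dendritic cells, at 1019 CPM in 31.2% of cells, and by Napsa, an aspartic protease gene, at 1261 CPM, while Ccr7 and Lamp3, markers of mature dendritic cells, were at 0 in all selected cells. Of the 274 Ccl17 UMIs there, 120 were in 1 PBS cell and 109 in 1 MPG-HD cell. Sub-cluster 8, with 22 cells (2, 14 and 6), was plasmacytoid dendritic-like, with Siglech in every cell at 842, 764 and 748 CPM and no UMI of Csf1r, Clec10a or Mrc1. Lyve1, a gene of the score, was found in 0% of the 2 PBS, 57.1% of the 14 G-HD and 66.7% of the 6 MPG-HD cells.

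The other sub-clusters were mixed. Sub-cluster 2 (96 cells, median 1436 UMIs, 71 without a score gene), sub-cluster 7 (23 cells, 21 without), sub-cluster 11 (18 oligodendrocyte-like cells, median 771 UMIs) and sub-cluster 12 (18 natural killer-like cells, led by Ccl5 and Nkg7) lay at or near the score's floor. Sub-cluster 7 reached the marker minimum both for monocytes (Plac8, Cd48 and Spn) and for B cells (Cd79a, Cd79b and Fcrla), 3 of each, and is left without a name. Sub-cluster 4 (58 cells; 10, 33 and 15) held lipid-handling genes such as Gpnmb and Fabp5 together with RT1-Db1 in 81% of cells, Clec10a in 63.8% and Mrc1 in 58.6%. Its median of 72.5 UMIs of 5 class II genes per 10000 was above the 6.84 of the border macrophage-like cells. Sub-cluster 9 (20 cells) was led by cell cycle genes. Other marker lists gave 0 cells for mast cells or basophils. No doublets were removed, and whether cells with 2 kinds of marker were doublets was not tested.

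**Figure D1:**
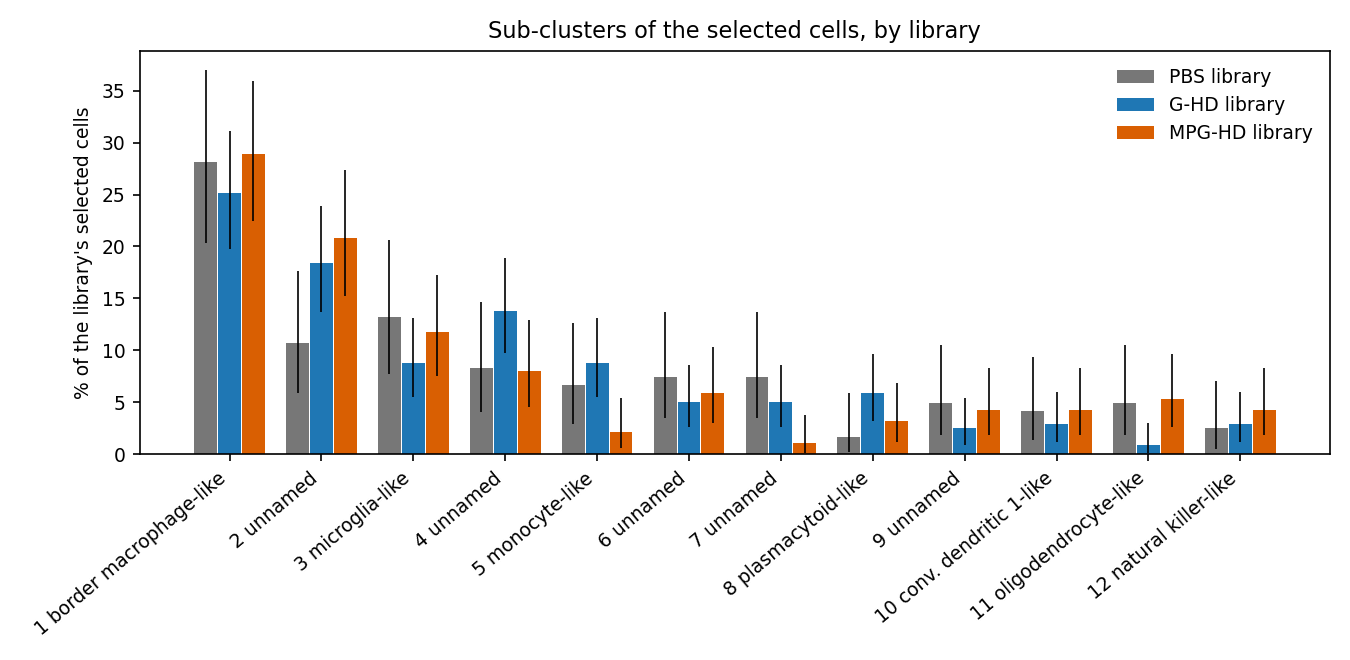
Share of each library's selected cells (y axis, %) in each of 12 sub-clusters (x axis), as grey (PBS), blue (G-HD) and orange (MPG-HD) bars with exact 95% binomial intervals for counting error only. Border macrophage-like cells were the first group in each library, at 28.1%, 25.1% and 28.9%, monocyte-like sub-cluster 5 held 6.61%, 8.79% and 2.14%, and sub-cluster 7 held 7.44%, 5.02% and 1.07%.

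A large share of the class II transcripts came from few of the selected cells. RT1-Db1 stood at 3936, 2879 and 3615 CPM, RT1-Ba at 2365, 2096 and 2550 CPM, and Cd74 at 9105, 8074 and 8041 CPM. Sub-clusters 6 and 10, with 52 cells or 9.51% of the selected cells, carried 63.1% of all RT1-Db1 UMIs and 49.9% of those of Cd74. By library they carried 60.8%, 53.6% and 75.3% of RT1-Db1, 57.1%, 45.3% and 66.5% of RT1-Da, and 52.4%, 37.7% and 65.0% of Cd74. In sub-cluster 10 Cd74 alone reached 39485, 42728 and 43414 CPM, whereas the border macrophage-like cells, 27.1% of the selected cells, carried 17.8% of RT1-Db1 and 21.3% of Cd74.

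Most of the Clec10a and Lyve1 transcripts lay elsewhere. Clec10a stood at 407, 544 and 637 CPM over all selected cells and Lyve1 at 117, 202 and 361 CPM, lowest in PBS and highest in MPG-HD for both. The border macrophage-like cells held 63.5% of the Clec10a UMIs, 67.6% of those of Lyve1 and 74.2% of those of Mrc1. Sub-clusters 6 and 10 held 18.1% of the Clec10a UMIs and 6.01% of those of Lyve1. With the libraries pooled, Clec10a was at 1142 CPM in sub-cluster 6, 290 CPM in sub-cluster 10 and 1161 CPM in border macrophage-like cells. Per cell, the median of the 5 main class II transcripts (RT1-Da, RT1-Db1, RT1-Ba, RT1-Bb and Cd74) was 6.84 UMIs per 10000 in border macrophage-like cells, 741 in sub-cluster 6 and 1134 in sub-cluster 10.

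**Figure D2:**
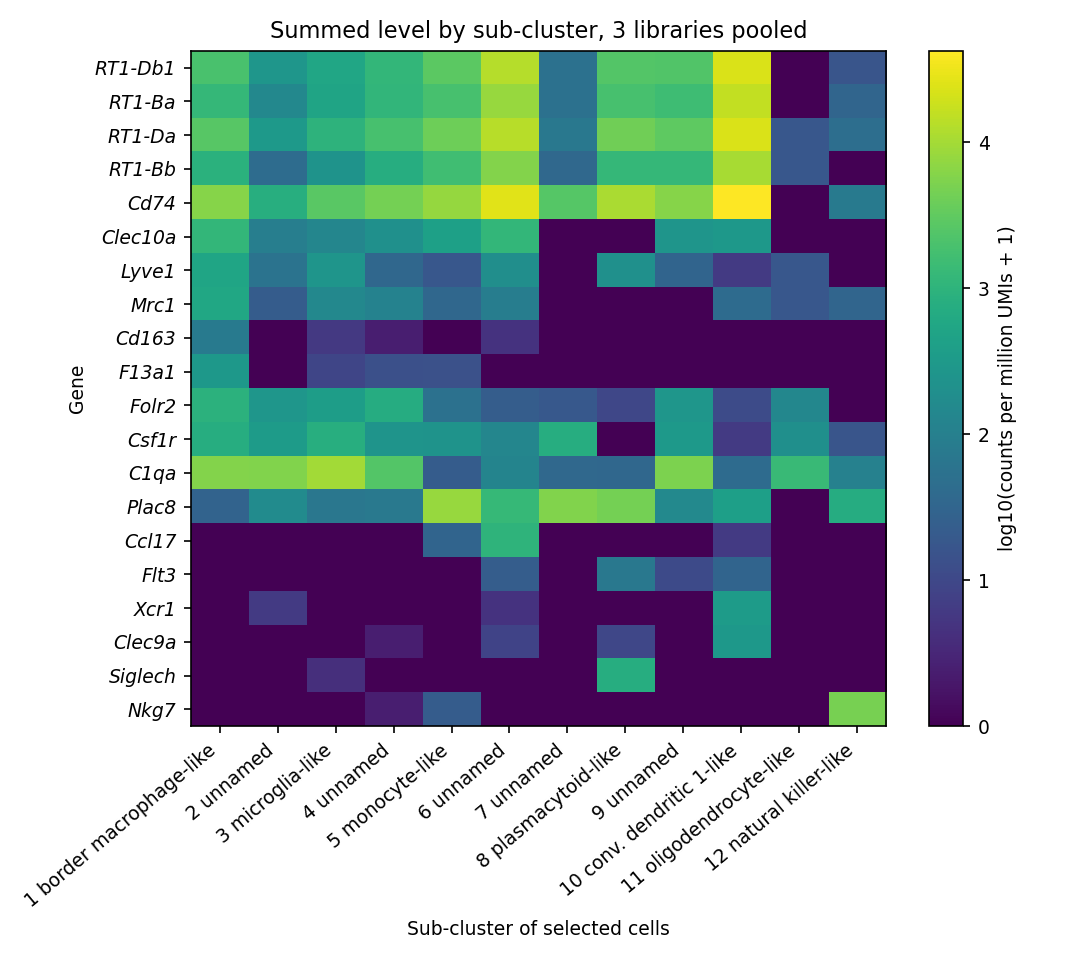
Summed level (colour, log10 of CPM plus 1, 3 libraries pooled) of 20 genes (rows) in the 12 sub-clusters of selected cells (columns). The class II rows are brightest in sub-clusters 6 and 10, where RT1-Db1 reached 12694 and 22781 CPM, while Lyve1, Mrc1, Cd163 and F13a1 are brightest in border macrophage-like sub-cluster 1.

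Elsewhere among phagocytes these transcripts were scarce but not absent. In Siglec1 scored phagocytes RT1-Db1 was at 8.72, 11.7 and 2.26 CPM, and Lyve1 at 21.6, 29.8 and 26.4 CPM. Mrc1, which was not in the score, was at 166, 179 and 332 CPM in selected cells and at 115, 128 and 122 CPM in Siglec1 scored phagocytes. Clec10a UMIs were found in 47.1%, 49.4% and 48.7% of selected cells. The share was 2.09%, 4.47% and 2.17% of Tmem119 scored, microglial phagocytes, which should lack the gene and had higher median depths of 10874, 10750 and 11692 UMIs. After thinning each cell to 2000 UMIs, which removed 126 selected cells, Clec10a was found in 37.0%, 42.9% and 44.7% of selected cells.

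Class II partners of the score genes were among the genes that were higher in selected cells than in other phagocytes. Of 3372 genes measured, 49 (1.45%) were at least 2-fold higher than in each of the 3 other phagocyte groups in all 3 libraries and 2 (0.0593%) as much lower. The same cells defined the groups, so these counts describe the selection. RT1-Bb, first by the lowest of its ratios, was at 1406, 1568 and 1804 CPM, and RT1-Da, the fourth, at 4751, 3611 and 3971 CPM. The list also held Fcmr, an IgM receptor gene, at 56.0, 54.5 and 83.0 CPM, Gpr171 at 56.0, 57.5 and 64.6 CPM, and Cd7, a lymphoid surface gene, at 37.7, 61.7 and 66.3 CPM. Slpi, a protease inhibitor gene, was at 1263, 899 and 854 CPM, with 3272 of its 3608 UMIs in the 20 cells of sub-cluster 10. The lysosomal genes Ctsd, at 2206, 2505 and 2338 CPM, and Arsb were the 2 lower ones.

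The border macrophage-like cells held Clec10a, Lyve1 and Mrc1 in a larger share of cells than any other sub-cluster, and they were described separately. Class II did not set them apart, with RT1-Db1 found in 41.9% of them and in 96.9% of sub-cluster 6. Sub-cluster 6 held Clec10a in 68.8%, Lyve1 in 46.9% and Mrc1 in 40.6% of cells. By library, Clec10a was found in 94.1%, 93.3% and 92.6% of border macrophage-like cells at 873, 1222 and 1254 CPM. Lyve1 was found in 58.8%, 60% and 66.7% of them at 297, 481 and 726 CPM. Mrc1 was at 485, 430 and 766 CPM. Against the other phagocyte groups, 29 of 1253 genes (2.31%) were at least 2-fold higher in all 9 ratios and 2 (0.160%) lower, again as a description of cells clustered on these genes. Fcmr, at 166, 121 and 210 CPM, had the largest of the lowest ratios, 78.7. F13a1, the coagulation factor XIII gene of resident macrophages, was at 284, 241 and 363 CPM.

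Chemokine genes were part of that profile. Ccl2, the monocyte-attracting chemokine gene, was at 1414, 1482 and 1954 CPM and at least 2.69-fold above every other group. Its neighbour in function Ccl7 was at 393, 487 and 778 CPM, and C5ar1, the receptor gene for the complement fragment C5a, at 288, 275 and 283 CPM. The 2 lower genes were Spp1, the osteopontin gene of lipid-laden macrophages, at 96.0, 457 and 45.0 CPM, and Ctsd at 1113, 1795 and 1256 CPM.

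Class II was close to all or none among the border macrophage-like cells. With the border set at 10 UMIs of the 5 class II genes per 10000, a value chosen after the levels had been seen, 76 cells were class II-low and 72 class II-high, and 7 lay between 5 and 20. No class II UMI at all was found in 9 of 15, 19 of 25 and 27 of 36 class II-low cells, at median depths of 7334, 7833 and 7660 UMIs. Class II-high cells were no deeper, at 6710, 7236 and 5608 UMIs, and held medians of 151, 165 and 165 class II UMIs per 10000. Their levels were graded, with quartiles of 84.9 and 481, 54.7 and 434, and 46.8 and 413. Cd74 was at 45.5, 69.3 and 49.0 CPM in class II-low and at 12201, 13870 and 11846 CPM in class II-high cells.

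**Figure D3:**
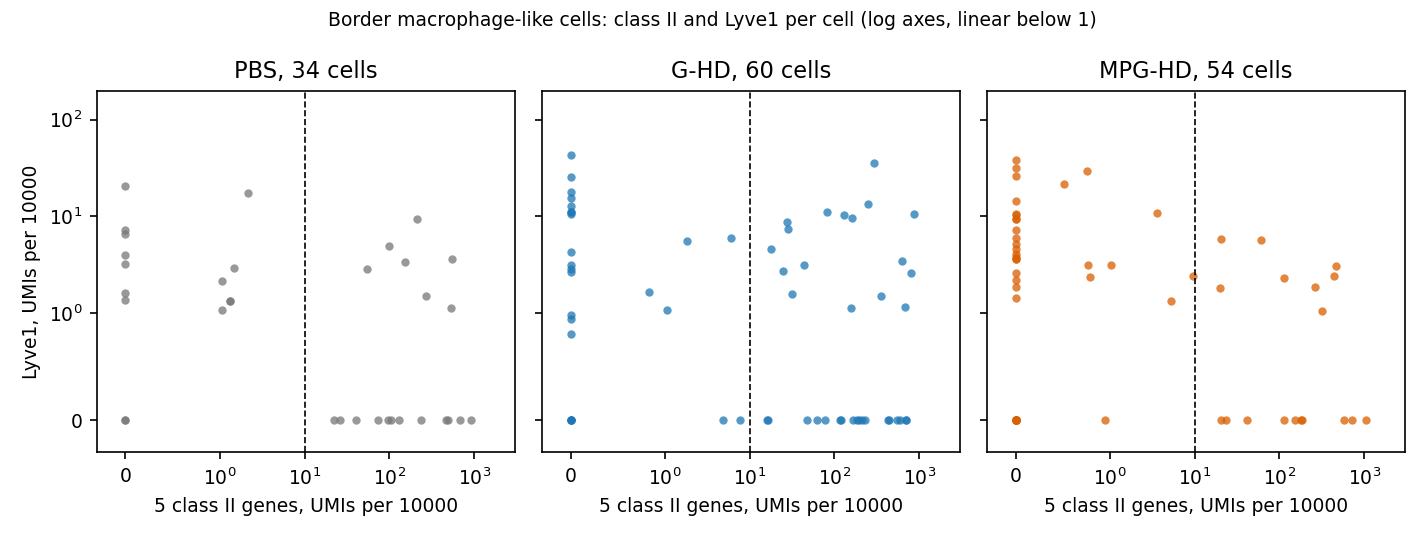
Each point is 1 border macrophage-like cell, with UMIs of 5 class II genes per 10000 (x axis) against Lyve1 UMIs per 10000 (y axis), both log axes that are linear below 1; the dashed line is 10 class II UMIs per 10000. Cells gather at 0 and above about 20 class II UMIs, and 15 of 34, 25 of 60 and 36 of 54 lie left of the line in PBS, G-HD and MPG-HD.

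Class II-low cells held more of 6 border macrophage markers, Cd163, F13a1, Fcgrt, Lyve1, Gas6 and Pf4. Of 2271 genes, 22 (0.969%) were at least 2-fold higher in class II-low cells in all 3 libraries and 7 (0.308%) as much lower. Cd163 was at 209, 104 and 126 CPM in class II-low cells and at 0, 11.1 and 26.3 CPM in class II-high cells, and it was found in 48.7% against 6.94% of cells. F13a1 was at 455, 525 and 501 CPM against 126, 29.6 and 17.5 CPM. Cd163 and F13a1 were in neither the score nor the split.

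Other genes had the same direction. Fcna, a ficolin gene, stood at 582, 748 and 638 CPM in class II-low against 126, 126 and 140 CPM in class II-high cells. Fcgrt, the neonatal Fc receptor gene, was at 1027, 728 and 1072 against 118, 218 and 43.8 CPM, and the complement factor D gene Cfd at 2082, 901 and 1177 against 395, 292 and 193 CPM. Gas6, a bridging ligand for dead-cell uptake, was at 555, 525 and 431 against 235, 203 and 61.3 CPM. The protease gene Ctsb, the platelet factor gene Pf4, Lamp1 and Rarres1 were also among the 22.

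Fewer genes were higher in class II-high cells. Coro1a, an actin regulator of leukocytes, was at 269, 407 and 613 CPM in class II-high and 72.7, 173 and 112 CPM in class II-low cells. Hopx, a homeodomain gene, was at 168, 329 and 193 against 27.3, 79.2 and 24.5 CPM. Within the sub-cluster Clec10a hardly separated the 2 kinds of cell. It was at 1289 CPM in class II-low and 1009 CPM in class II-high cells of the 3 libraries pooled, found in 93.4% and 93.1% of cells. As a score gene Clec10a helped to choose these cells, so its levels describe the selection.

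**Figure D4:**
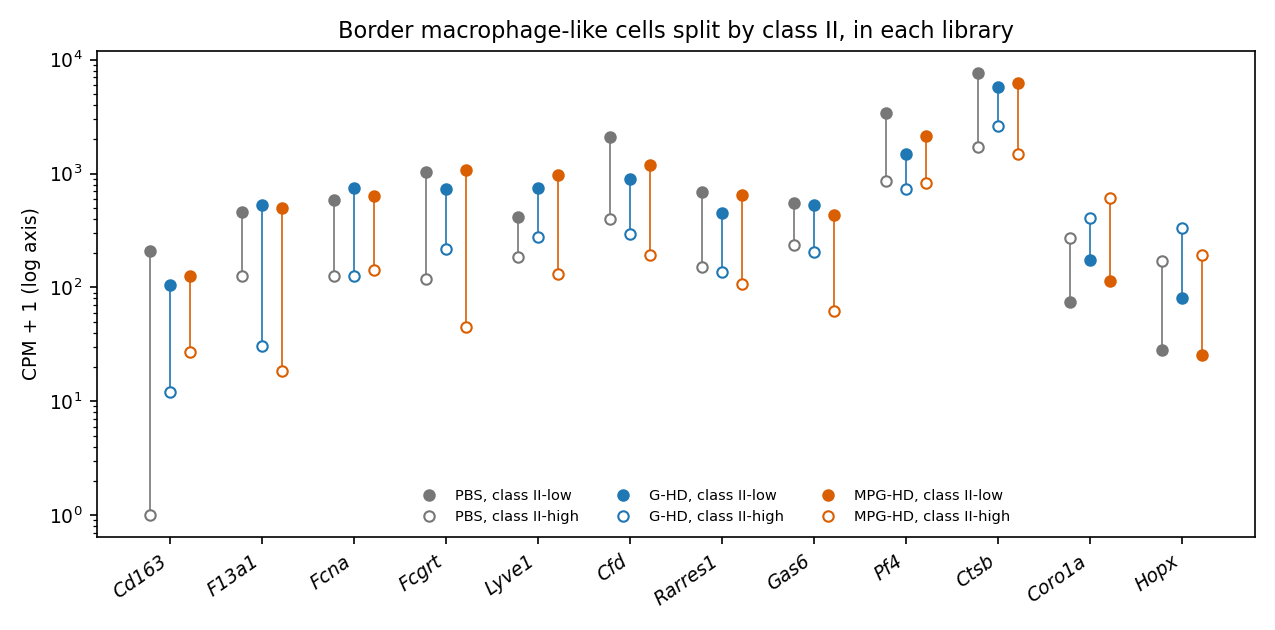
CPM plus 1 (y axis, log scale) of 12 genes in class II-low (filled) and class II-high (open) border macrophage-like cells, 1 linked pair per library in grey (PBS), blue (G-HD) and orange (MPG-HD). The filled point is above the open one in every library for the first 10 genes, Lyve1 included at 418, 752 and 963 against 185, 277 and 131 CPM, and below it for Coro1a and Hopx.

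The selection itself can tie class II to Lyve1 and to Clec10a, because all are in the score. A cell without class II was selected by Clec10a or Lyve1, or with none of the 4 genes, as in 4 of the 148 border cells. Lyve1 was found in 78.9% of class II-low and 44.4% of class II-high border cells. Taking instead every phagocyte with 2 or more Mrc1 UMIs, 755 cells chosen without the score, Lyve1 was not higher in the class II-low ones, at 62.9 CPM in 668 class II-low and 122 CPM in 87 class II-high cells. F13a1 was at 30.5, 76.6 and 44.9 CPM in their class II-low and 65.8, 28.1 and 74.7 CPM in their class II-high cells, higher in class II-low cells in G-HD only. Cd163 was at 10.8, 5.87 and 11.2 against 0, 5.61 and 3.93 CPM. Clec10a, alike in the 2 kinds of border cell, was lower in the class II-low cells of the 755. It was at 75.3, 96.4 and 140 CPM there against 494, 582 and 535 CPM. With the libraries pooled it was found in 34.0% of class II-low and 75.9% of class II-high cells. The 658 of these phagocytes outside the border macrophage-like sub-cluster had Lyve1 at 30.3 CPM in class II-low and 35.1 CPM in class II-high cells. The opposition of Lyve1 and class II, and in PBS and MPG-HD that of F13a1 and class II, was seen within the sub-cluster and not in the 755 cells. Only 148 of the 755 were selected cells, and median depth was 17413 UMIs in their class II-low and 10013 in their class II-high cells. With kinds of phagocyte and depths mixed, the 755 cells cannot decide whether the opposition, or the like level of Clec10a, comes from the selection.

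The MPG-HD library had the largest share of class II-low border cells. It was 44.1% in PBS (27.2 to 62.1), 41.7% in G-HD (29.1 to 55.1) and 66.7% in MPG-HD (52.5 to 78.9), and the intervals overlapped. Of the Mrc1-bearing phagocytes 86.4%, 87.8% and 90.7% were class II-low. Within class II-high border cells, which RT1-Db1 helped to choose, it was at 4954, 4380 and 3922 CPM. Over the whole sub-cluster, which held 19, 35 and 18 class II-high cells, RT1-Db1 was at 2575, 2507 and 1123 CPM.

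Between libraries, single cells decided many differences in the summed selected cells. Of 4177 genes with at least 50 UMIs in G-HD and PBS together, 307 (7.35%) were at least 1.5-fold higher in G-HD and 320 (7.66%) lower. For MPG-HD over PBS, which shares the PBS library with the first comparison, 170 of 3622 genes (4.69%) were higher and 306 (8.45%) lower. For MPG-HD over G-HD, 180 of 4355 (4.13%) were higher and 348 (7.99%) lower. Myelin and glial genes were among the lowest in G-HD over PBS, and 1 PBS cell held most of their UMIs. That cell of the oligodendrocyte-like sub-cluster, with 46451 UMIs, held 852 of 894 PBS UMIs of S100b, a glial calcium-binding gene. It also held 51 of 57 of the myelin gene Mog and 120 of 139 of the tubulin gene Tubb4a.

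Stromal genes were among the highest in G-HD over PBS and again came from few cells. The matrix proteoglycan gene Dcn, at 4.57, 182 and 7.55 CPM, had 226 of its 300 G-HD UMIs in 1 cell, which also held 61 of 68 UMIs of Myoc. Other single cells held 116 of 140 UMIs of the collagen gene Col3a1, 78 of 97 of Igfbp7 and 158 of 159 of Ly6d. The fibroblast marker list stood at 28.6, 384 and 28.5 CPM, with 2 or more of its markers in 1, 6 and 4 cells.

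Several monocyte genes were lowest in MPG-HD. Fcnb was at 190, 476 and 28.5 CPM, and its ratio was 0.150 (0.101 to 0.218) for MPG-HD over PBS and 0.0599 (0.0412 to 0.0845) over G-HD. Plac8 was at 1147, 1101 and 447 CPM, the ratio to PBS being 0.390. Of 5 measured genes of the monocyte program, 3 were lower in MPG-HD than in PBS and 4 lower than in G-HD, against 8.45% and 7.99% of all genes, with medians of -0.73 and -0.71 on the log2 scale beside -0.03 and -0.01 over all genes. Monocyte-like sub-cluster 5 held 8, 21 and 4 cells, and sub-cluster 7, with as many B cell as monocyte markers, 9, 12 and 2. In other phagocytes the median of these genes was -0.36 over PBS and 0.18 over G-HD.

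Some border macrophage genes were higher in MPG-HD. Lyve1 had a ratio of 3.09 (2.49 to 3.88) over PBS, as a score gene a description only, and Mrc1 one of 2.00. Of 10 measured border program genes, 4 were higher in MPG-HD than in PBS (Mrc1, Lyve1, F13a1 and Fcgrt) and 4 higher than in G-HD (Mrc1, Lyve1, F13a1 and Cd163), and 0 were lower, where 4.69% and 4.13% of all genes were that much higher. The list's medians were 0.42 and 0.53. The medians in other phagocytes were 0.06 and -0.22. Genes of natural killer cells, Ccl5 at 103, 336 and 439 CPM and Nkg7 at 32.0, 93.8 and 107 CPM, were also higher than in PBS, and natural killer-like sub-cluster 12 held 3, 7 and 8 cells.

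Some genes lower in MPG-HD than in PBS were also lower in other phagocytes. Serping1, the C1 inhibitor gene, was at 53.7, 53.3 and 10.9 CPM, with a ratio of 0.203 in selected cells and 0.207 in other phagocytes. The fibronectin gene Fn1, at 69.7, 63.6 and 10.9 CPM, had ratios of 0.156 and 0.543. Ccl22, a dendritic chemokine gene, had 109 MPG-HD UMIs in 2 cells.

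A minority of the interferon list was above PBS in G-HD. Ifi27l2b was at 142, 355 and 205 CPM, and Isg15, a ubiquitin-like interferon gene, at 85.7, 169 and 69.6 CPM. The antiviral GTPase gene Mx1, at 166, 213 and 73.8 CPM, had a ratio of 1.29 for G-HD over PBS and of 0.346 for MPG-HD over G-HD. Of 23 genes measured, 7 were at least 1.5-fold above PBS in G-HD and 1 was that far below, against 7.35% and 7.66% of all genes, with a median of 0.42 beside 0.75 in other phagocytes. Of 22 measured, 16 were lower in MPG-HD than in G-HD and 0 were higher, with a median of -0.82 beside -0.20 in other phagocytes. Over all genes 7.99% were that much lower.

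Heat shock and class II genes gave other pictures. Hspa1b, an inducible chaperone gene, was at 145, 12.7 and 30.2 CPM, highest in PBS, and 6 of 12 heat shock genes were lower in G-HD than in PBS, against 7.66% of all genes, with a median of -0.57. Its ratios in other phagocytes, 0.109 for G-HD and 0.393 for MPG-HD over PBS, had the same direction. Of 9 class II presentation genes, 0 differed by 1.5-fold between G-HD and PBS and 0 between MPG-HD and G-HD. In MPG-HD over PBS 1 was higher, and the medians were -0.17, 0.14 and 0.02 in that order. Of all genes, 7.35% were higher and 7.66% lower in G-HD over PBS. The shares were 4.13% and 7.99% in MPG-HD over G-HD, and 4.69% and 8.45% in MPG-HD over PBS.

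Summed over the border macrophage-like cells, class II was lowest in MPG-HD. Of 8 class II genes measured there, 5 (RT1-Da, RT1-Db1, RT1-Ba, RT1-Bb and Cd74) were lower in MPG-HD than in PBS, against 5.56% of 1404 genes, and lower than in G-HD, against 7.79% of 1887. RT1-Da was at 3418, 3231 and 1474 CPM, a ratio of 0.431 (0.387 to 0.480) over PBS, and Cd74 at 6364, 7967 and 3420 CPM, a ratio of 0.429 (0.403 to 0.457) over G-HD. In the other selected cells Cd74 had a ratio of 1.28 over G-HD, and over all selected cells one of 0.996. In other phagocytes, where class II was scarce, Cd74 was also lower, at 0.404 (0.374 to 0.437). RT1-Bb over G-HD was 0.379 (0.280 to 0.507) there. Over PBS, RT1-Da was 0.598 (0.494 to 0.723) and RT1-Db1 0.559 (0.419 to 0.746) in other phagocytes. RT1-Bb was not lower than in PBS in them, with an interval of 0.946 to 2.44. Lower class II in MPG-HD was thus not seen in border cells alone. Among class II-high border cells alone RT1-Da was at 6575, 5638 and 5113 CPM and Cd74 at 12201, 13870 and 11846 CPM. Those cells were chosen by the sum of these same genes, so closer levels there are a description of the choice. Of border cells, 44.1%, 41.7% and 66.7% were class II-low, with overlapping intervals. These cells were clustered from genes that include class II, so the comparison describes the sub-cluster.

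Border program genes were higher in MPG-HD than in G-HD in these cells. Mrc1, Cd163, Lyve1, Folr2, F13a1, Pf4 and Fcgrt, 7 of 10 measured, were at least 1.5-fold higher and 0 lower, with a median of 0.60, against 5.25% of all 1887 genes. Over PBS only Mrc1 and Lyve1 of 10 were higher, against 9.97% of genes, with a median of 0.22. In G-HD over PBS, of 9 measured, Lyve1 was higher and Pf4 lower, against 14.2% and 6.23% of all genes, with a median of -0.23. Lyve1 in MPG-HD over PBS was 2.44 (1.87 to 3.23) in the border cells summed. It was 2.30 in class II-low cells, on 321 UMIs, and 0.711 in class II-high cells, on 37 UMIs.

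Il1b, the gene of the cytokine interleukin-1 beta, was higher in both hydrogel libraries than in PBS in these cells and ranked first among genes higher in G-HD. It was at 332, 2077 and 988 CPM, found in 13 of 34, 48 of 60 and 35 of 54 border macrophage-like cells. The ratio to PBS was 6.26 (4.95 to 8.01) in G-HD and 2.98 (2.33 to 3.86) in MPG-HD. In other phagocytes the same ratios were 0.956 (0.928 to 0.984) and 0.954 (0.925 to 0.983), and in the other selected cells 1.18 and 0.778. No single cell decided it, since 120 of 981 G-HD UMIs were in the highest cell and the ratio without the highest cell of each library was 7.74.

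Other genes of the border cells were highest in G-HD. Ifi27l2b was at 109, 637 and 250 CPM, a ratio of 5.84 (3.88 to 9.17) over PBS, and Ifitm3, an antiviral membrane gene, at 17.5, 148 and 113 CPM. For G-HD over PBS, Ifitm3 was 8.49 (3.17 to 32.0) in border cells, on 4 PBS UMIs. It was also higher in other phagocytes, at 5.56 (4.54 to 6.87), but not in the other selected cells, at 0.724. Ifi27l2b had ratios of 1.36 in other phagocytes and 1.58 in the other selected cells. Of 8 interferon genes measured, 6 were higher in G-HD against PBS and 2 (Cxcl9 and Cxcl10) lower, with a median of 1.16 (1.28 without Cxcl9, which had 0 UMIs in G-HD and was set at its bound), where 14.2% of 1573 genes were higher and 6.23% lower. Spp1 was at 96.0, 457 and 45.0 CPM, 4.76 (3.07 to 7.76) times PBS in G-HD and 0.0985 (0.0573 to 0.159) times G-HD in MPG-HD. In MPG-HD over G-HD it was also lower in the other selected cells, at 0.363 (0.328 to 0.402), and in other phagocytes, at 0.557 (0.551 to 0.563). In G-HD over PBS its ratios in those 2 groups were 1.30 and 1.19. Of 13 lipid-associated genes, 6 (Spp1, Lgals3, Fabp5, Fabp4, Ctsd and Plin2) were at least 1.5-fold above PBS in G-HD, with a median of 0.50.

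Hspa1b and Dnaja1 were highest in PBS border cells. Hspa1b was at 306, 14.8 and 47.5 CPM, with ratios to PBS of 0.0485 (0.0188 to 0.105) in G-HD and 0.156 (0.0885 to 0.261) in MPG-HD, and Dnaja1, a co-chaperone gene, at 711, 208 and 445 CPM. Tsc22d3, a glucocorticoid-induced gene, was at 362, 125 and 140 CPM, with a ratio of 0.973 for G-HD over PBS in other phagocytes. Of 10 heat shock genes, 3 were lower in G-HD and 3 in MPG-HD, against 6.23% and 5.56% of all genes. Their medians were -0.35 and -0.10, beside 0.07 and 0.06 over all genes. Cxcl9, an interferon-gamma chemokine gene, had 51 UMIs in 2 PBS cells and 0 in the hydrogel libraries, so the difference rested on those 2 cells.

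**Figure D5:**
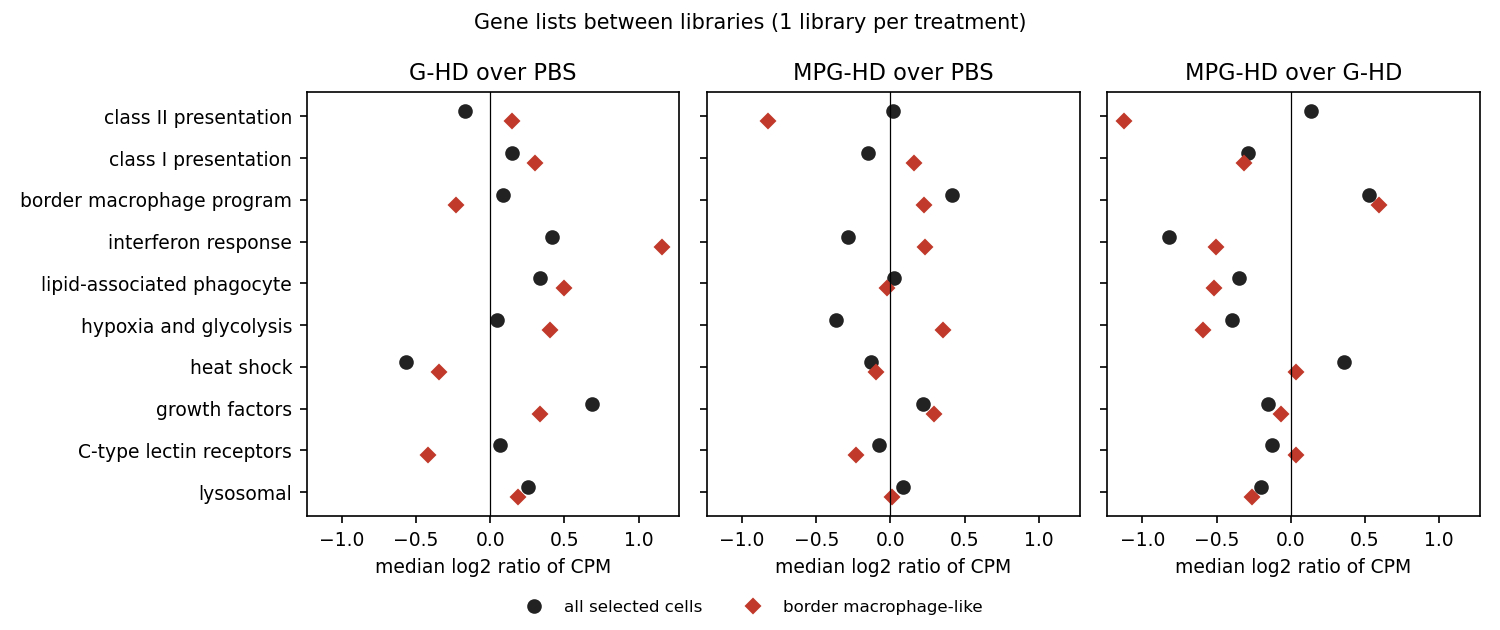
Median log2 ratio of CPM (x axis) of 10 gene lists (rows) for 3 library comparisons (panels), in all selected cells (circles) and in border macrophage-like cells (diamonds). In border macrophage-like cells class II presentation lies at -0.83 and -1.12 for MPG-HD over PBS and over G-HD while all selected cells lie at 0.02 and 0.14, and the interferon response lies at 1.16 for G-HD over PBS.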

How the data were processed

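The 3 libraries of rat cord were prepared with the 10x Genomics 3′ chemistry. Values are raw UMI counts per gene and barcode as deposited, not normalized, per the file headers. Cell Ranger 3.0.2 (3.1.0 in the matrix header) is listed in the submitters' processing notes, with GRCm38 and mm10, which are of mouse, as builds. Identifiers are those of rat Ensembl genes, and which rat build was used is not given in the sources used here.

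Kept cells had 200 or more genes and no more than 20% mitochondrial UMIs, and no doublets were removed. The selected cells were clustered (Leiden, leidenalg 0.10.2, 1500 variable genes, 20 components, 15 neighbours, resolution 0.6, scikit-learn 1.9.0). UMIs were summed per library and scaled to CPM (NumPy 2.4.6, SciPy 1.17.1). Intervals are exact binomial, Poisson or conditional 95% intervals, and ratios against 0 used 3 UMIs. With 1 library per treatment and cells that are not replicates, no test was made. The counting code was tested on simulated data.

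The selected cells, gene lists and rules were chosen with earlier results of these data known. The named-genes rule took the score genes with Cd74 and Mrc1. It took the first 25 profile genes by the lowest of 9 ratios, with at least 100 UMIs. Between libraries it took the first 10 each way (6 for MPG-HD over G-HD) that were 2-fold or further apart (0.5 or less for lower genes) on 50 or more UMIs, kept the direction with equal cell weights and stayed 1.5-fold without the top cell, ordered by the interval bound nearest 1. It took up to 4 genes of each list. It left out haemoglobin, ribosomal and mitochondrial genes and features with no symbol. Border-cell comparisons, other list genes and the class II split were chosen after their values were seen. Alternatives varied cell filters, score, phagocyte minimum, scaling, thinning, gene minimum and resolution.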

Additional observations from a re-analysis of the deposited data

How the results depend on the processing

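No paired analysis was possible because each treatment has 1 library and the labels give no replicate numbers. The share of class II-low border cells stayed within its interval in each library with 5 or 20 UMIs per 10000 and after thinning, alternatives chosen after seeing the data, and the pair of clusters at resolution 1.0 held the same cells. The share of selected cells moved, in the order PBS, G-HD, MPG-HD, to 9.60%, 12.4% and 10.6% when the score had to lead by 0.25, to 12%, 15% and 11.6% with only cells holding a score gene, and to 5.01%, 6.72% and 8.01% without cells with 2 or more markers of a dendritic or lymphoid list, which removed 347 of 547. Without sub-clusters 2 and 11, an alternative added after seeing the data like that of the score gene, it was 16.2% in G-HD and 13.2% in MPG-HD. The border cells lay in a cluster of 207 cells at resolution 0.3. At resolution 1.0 they divided into clusters of 78 cells (21 class II-low and 57 class II-high, Lyve1 in 34) and 70 cells (55 and 15, Lyve1 in 58). Counts of genes 1.5-fold higher and lower depended on how many cells and genes were tested. For G-HD over PBS they were 695 and 912 with at least 20 UMIs and 133 and 130 with at least 100. After thinning they were 116 and 75, and without the 347 cells with those dendritic or lymphoid list markers 103 and 83. There 556 were higher with equal cell weights, and 183 lower with the lead of 0.25, 198 without the deepest cells and 148 without each gene's top cell. For MPG-HD over PBS they were 478 and 841, 67 and 123, 58 and 73, and 81 and 72 under the first 4 of these, 384 and 528 with equal weights, and 176 lower without the top cell. For MPG-HD over G-HD they were 545 and 786, 58 and 151, 49 and 108, and 72 and 113, and 372 and 642 with equal weights. Without sub-clusters 2 and 11, Col1a1 turned to a log2 ratio of -0.076 for G-HD over PBS and Dcn to 0.10 for MPG-HD over G-HD. Rgcc turned to -0.87 for MPG-HD over PBS without the 347 cells with those list markers. The cause was not tested. Among the other values, 173 moved and 1128 did not.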
